A study of Homo sapiens with 8 samples.

Results

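LNCaP prostate adenocarcinoma cells that carry a hairpin RNA against METTL3 were compared with LNCaP cells that carry a control hairpin. The 6 hairpin libraries of the 8 in the series were taken by their labels, without regard to any measured value: every library whose cells were infected with the METTL3 hairpin, whichever METTL3 copy was added to them. These 6 libraries come from 3 stable lines with 2 libraries each. The knockdown line carries the METTL3 hairpin with a vector. In the wild-type rescue line the same hairpin is joined by a METTL3 copy that the hairpin does not reach, and in the mutant rescue line that resistant copy is catalytically dead. The comparison group is the control line, a control hairpin with a vector, also with 2 libraries. All 4 lines were made with lentivirus, selected with puromycin at 1 µg/ml and grown in RPMI-1640 with 10% fetal bovine serum. LNCaP is an established line of androgen-responsive prostate cancer cells. The question asked was which transcripts sat on the same side of the control in all 3 hairpin lines, with no METTL3 copy, an active copy or an inactive copy added. Of 15289 genes with enough counts to be tested, out of 27140 in the table, 4069 did so.

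METTL3 is the catalytic subunit of the nuclear complex that places N6-methyladenosine (m6A) on messenger RNA, and readers of this mark affect the splicing, decay and translation of the marked transcripts. A hairpin RNA is processed by DICER1 and loaded into Argonaute proteins, which then silence transcripts that pair with it. A resistant copy of the target is the usual control for a hairpin: a transcript that depends on the enzyme is looked for on the way back to the control level. Here METTL3 stood above its control level with either copy (values below). Where a transcript did not return, the enzyme and anything else in the hairpin lines can therefore not be told apart.

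METTL3 itself differed between the lines as their labels say. Its level, in CPM (counts relative to the scaled total of the library, so that libraries of unequal depth can be set side by side), was 68.4 and 68.5 CPM in the control libraries, 26.2 and 31.3 in the knockdown, 309 and 325 with the wild-type copy and 333 and 334 with the mutant copy. The log2 fold changes over the control were -1.26, 2.21 and 2.29 in the knockdown, the wild-type rescue and the mutant rescue, so METTL3 is not among the genes that moved the same way. Counts from the cell's own gene and from an introduced copy fall on the same gene and cannot be told apart. The 3 hairpin lines therefore share a hairpin and not a METTL3 level.

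The libraries held 15200343 to 17893241 counts, and the 2 libraries of a line differed by slightly more than sampling noise (chi-square per degree of freedom 1.21 to 1.35). The prostate luminal character of LNCaP was checked on 10 defining markers, whose summed level was 10432 to 10487 CPM in the control libraries and 8395 to 8739 in the hairpin libraries, with none at 0. Summed markers of basal cells (2.77 to 4.34 CPM over the 8 libraries) and of leukocytes (0.126 to 0.451) were near 0. In bulk RNA, fewer cells of a kind and less RNA per cell cannot be told apart. Whether a line's 2 libraries were grown separately is not stated in the labels, and each line is 1 stable line. An adjusted p therefore measures the spread between these libraries (biological coefficient of variation 1.40%). What the METTL3 hairpin does and what sets the control line apart in any other way cannot be told apart, because every hairpin comparison uses the same 2 control libraries.

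In edgeR's quasi-likelihood test at a Benjamini-Hochberg adjusted p under 0.05, 1910 genes (12.5% of those tested) were higher than the control in all 3 hairpin lines and 2159 (14.1%) were lower, 26.6% in either direction. Below, a gene is said to have risen or fallen when it was called in that direction in each of the 3 lines. The 3 comparisons share the control libraries, so this count is given as a description. Each line alone differed from the control in more genes: the knockdown in 3506 higher (22.9%) and 3831 lower (25.1%, 48.0% in all), the wild-type rescue in 3636 (23.8%) and 3895 (25.5%, 49.3% in all), and the mutant rescue in 4451 (29.1%) and 4542 (29.7%, 58.8% in all). For the average of the 3 lines against the control 4159 genes were higher (27.2%) and 4475 lower (29.3%, 56.5% in all). Most of the shared changes were small. The median average log2 fold change was 0.37 over the genes that rose and -0.38 over those that fell, against -0.01 over all tested genes. A log2 fold change of at least 1 in each of the 3 lines was reached by 131 genes upward (0.857%) and 66 downward (0.432%).

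These counts rest on the spread between the 2 libraries of a line. When the 6 hairpin libraries were treated as 1 group of 6, so that differences between hairpin lines counted as error, the average comparison called 1635 genes higher and 1832 lower. With the 3 lines as units against 1 control line, 9 were higher and 7 lower. An exact permutation test of 6 libraries against 2 has 28 arrangements, so a two-sided p made by doubling the one-sided p cannot fall below 0.0714.

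PGK1, the glycolytic enzyme that makes ATP from 1,3-bisphosphoglycerate, had the largest fall among genes that averaged at least 5 CPM. Its level was 1361 and 1369 CPM in the control libraries, 343 and 358 in the knockdown, 329 and 326 with the wild-type copy and 302 and 308 with the mutant copy. All 6 hairpin libraries lay far below both control libraries, and the log2 fold change averaged over the lines was -2.06 (SE 0.02), with an adjusted p of 7.64e-159 by edgeR. The lines themselves differed little beside this fall: the wild-type rescue stood 0.10 below the knockdown on the log2 scale (95% interval of the difference -0.14 to -0.05) and the mutant rescue 0.20 below it (-0.25 to -0.15). Neither rescue line stood nearer the control than the knockdown did.

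CCL20, a chemokine that draws lymphocytes and dendritic cells through its receptor CCR6, was among the largest rises. It stood at 8.84 and 8.38 CPM in the control libraries, 50.2 and 51.9 in the knockdown, 55.1 and 57.7 with the wild-type copy and 37.2 and 36.9 with the mutant copy. The lowest hairpin library was above 4 times the higher control library, and the average rise on the log2 scale was 2.46 (SE 0.07), with an edgeR adjusted p of 2.74e-72. The mutant rescue was the lowest of the 3 lines, -0.61 (95% interval -0.72 to -0.50) on the log2 scale against the wild-type rescue. UGT2B15, which attaches glucuronic acid to dihydrotestosterone and its metabolites, also rose in all 3 lines but to unequal levels: 14.3 and 14.9 CPM in the control libraries, 79 and 73.1 in the knockdown, 67.6 and 69.1 with the wild-type copy and 32.1 and 31.8 with the mutant copy. Its log2 fold changes were 2.38, 2.22 and 1.13 in the knockdown, the wild-type rescue and the mutant rescue. Reads of UGT2B15 and of its near-identical neighbour UGT2B17 (1.64, 1.41 and 0.81) may be split between them by the counting, so their separate values are uncertain.

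The 250 bases upstream of the start of these genes and of CXCL10, a chemokine that rose to a like extent in the 3 lines, are shown as examples of genes that moved in all 3 lines, and were chosen after their motif matches were seen. The sequences are RefSeq's on GRCh38.p14, 5′ to 3′ on the gene's strand. They lie at chrX:78103998-78104247 on the plus strand (PGK1), chr2:227813592-227813841 on the plus strand (CCL20), chr4:76023498-76023747 on the minus strand (CXCL10) and chr4:68670653-68670902 on the minus strand (UGT2B15). Capitals mark matches on either strand to the hypoxia core ACGTG in PGK1, to the kappaB motif in CCL20 and CXCL10, and to the androgen receptor half-site TGTTCT in UGT2B15.
PGK1: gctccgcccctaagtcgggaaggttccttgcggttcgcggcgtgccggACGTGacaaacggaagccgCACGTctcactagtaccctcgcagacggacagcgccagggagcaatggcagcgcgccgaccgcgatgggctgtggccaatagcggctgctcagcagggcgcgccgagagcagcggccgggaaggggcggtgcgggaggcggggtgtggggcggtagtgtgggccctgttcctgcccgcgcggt
CCL20: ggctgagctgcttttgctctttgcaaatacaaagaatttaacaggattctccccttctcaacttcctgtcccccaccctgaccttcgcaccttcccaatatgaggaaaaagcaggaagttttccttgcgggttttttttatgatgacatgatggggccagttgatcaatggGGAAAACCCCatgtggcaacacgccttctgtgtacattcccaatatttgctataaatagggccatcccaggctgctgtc
CXCL10: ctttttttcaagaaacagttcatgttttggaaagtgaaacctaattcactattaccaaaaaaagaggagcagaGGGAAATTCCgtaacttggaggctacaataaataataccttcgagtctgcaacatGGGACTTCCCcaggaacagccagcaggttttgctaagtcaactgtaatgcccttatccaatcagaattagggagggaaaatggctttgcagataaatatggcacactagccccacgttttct
UGT2B15: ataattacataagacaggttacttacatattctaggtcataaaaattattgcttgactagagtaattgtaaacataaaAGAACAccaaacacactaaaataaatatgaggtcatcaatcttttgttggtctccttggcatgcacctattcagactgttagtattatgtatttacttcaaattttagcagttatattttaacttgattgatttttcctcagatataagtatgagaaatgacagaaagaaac
PGK1 held 2 matches to the hypoxia core, CCL20 held 1 match to the kappaB motif, CXCL10 held 2, and UGT2B15 held 1 androgen receptor half-site. In the same window CXCL8, another chemokine that rose, held no match to the kappaB pattern used, and IGFBP3, which also rose, held no match to any of the 3 motifs. The kappaB pattern was GGGRNNYYCC (R is A or G, Y is C or T, N is any base). Looser kappaB sites were not searched, so the CXCL8 window may still hold such a site. In all 27305 promoters of the table, windows of the same length held at least 1 match in 18.7%, 9.57% and 12.4% for these 3 motifs, and over the 11718 tested genes with a promoter there the shares were 23.1%, 11.6% and 7.59%. A match is a description of the letters and no evidence of binding. A comparison of these shares with those of the genes that rose or fell is void, because only 76.6% of the tested genes had a promoter in the table.

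**Figure D1:**
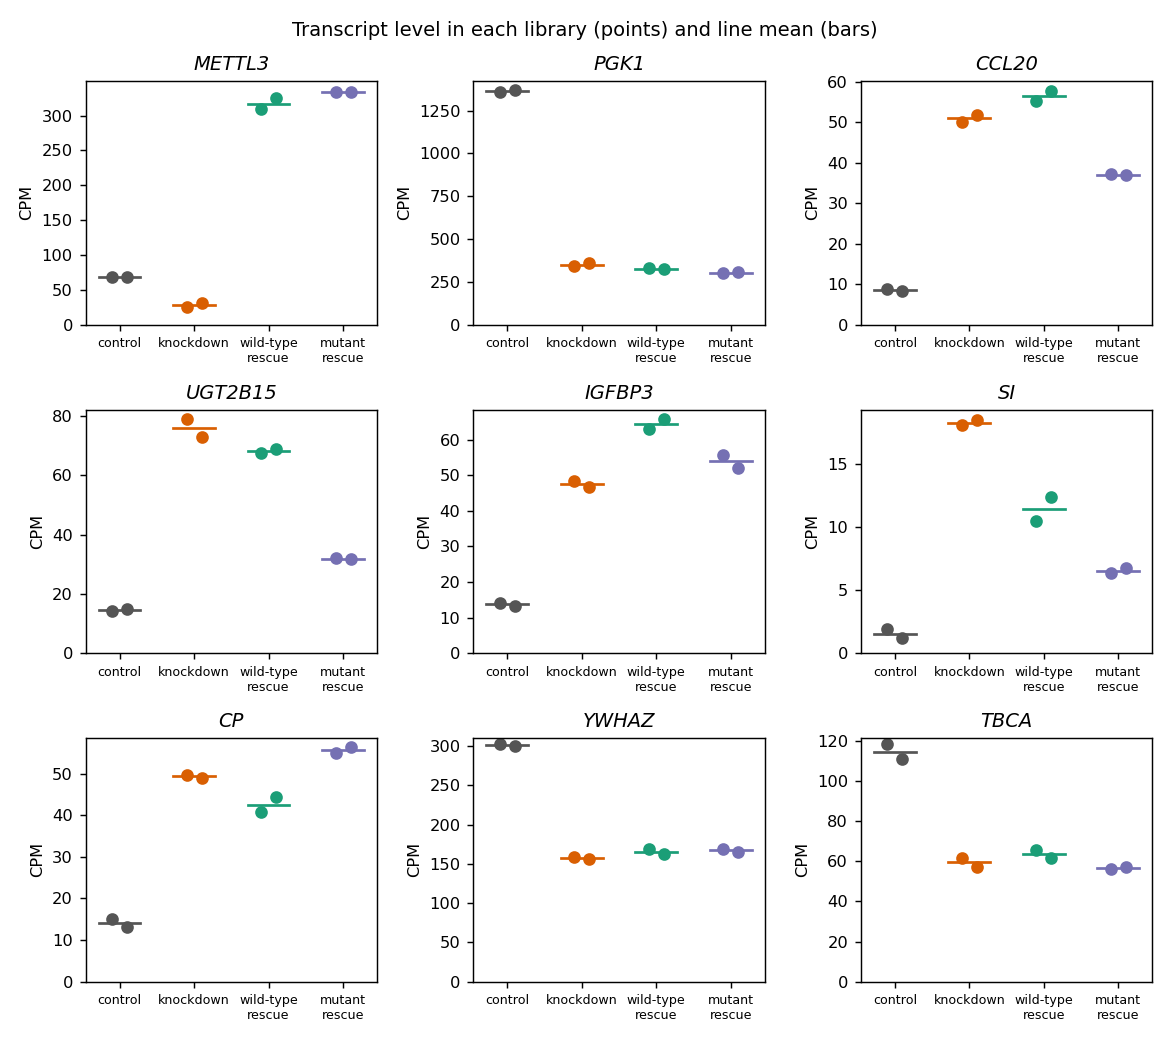
Level in CPM (vertical axes, each from 0) in each of the 8 libraries (points, 2 per line) with the mean of each line (bars), for METTL3 and 8 genes that moved the same way in all 3 hairpin lines. In the 8 panels after METTL3, the 6 hairpin libraries lie on 1 side of both control libraries. Among the hairpin lines, the mutant rescue has the lowest mean for PGK1, CCL20, UGT2B15, SI and TBCA.

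The largest rises, ranked by the smallest of the 3 log2 fold changes among genes that averaged at least 5 CPM, were 15 genes with average log2 fold changes of 1.24 to 2.84. IGFBP3, which binds insulin-like growth factors outside the cell, was at 14.2 and 13.4 CPM in the control libraries, 48.3 and 46.8 in the knockdown, 63.1 and 65.9 with the wild-type copy and 55.6 and 52.2 with the mutant copy. All 6 hairpin libraries were above 3 times the control libraries, with an average rise of 1.99 (SE 0.06) on the log2 scale (edgeR adjusted p = 1.6e-69), and here the wild-type rescue was the highest. SI, an intestinal disaccharidase, was at 1.9 and 1.2 CPM in the control libraries, 18.1 and 18.4 in the knockdown, 10.5 and 12.4 with the wild-type copy and 6.35 and 6.74 with the mutant copy. It was highest in the knockdown and lowest in the mutant rescue, and the log2 fold changes were 3.55, 2.89 and 2.08 in the order knockdown, wild-type rescue, mutant rescue. CP, the copper-carrying ferroxidase ceruloplasmin, was at 15.2 and 13.2 CPM in the control libraries, 49.7 and 49 in the knockdown, 40.7 and 44.4 with the wild-type copy and 54.9 and 56.4 with the mutant copy, with its highest level in the mutant rescue and an average log2 fold change of 1.79 (SE 0.06).

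The other 11 of the largest rises differed in how far apart the hairpin lines stood. SERPINI1, a serine protease inhibitor of the nervous system, had log2 fold changes of 1.82, 1.87 and 1.62 in the knockdown, the wild-type rescue and the mutant rescue. The transmembrane protease gene TMPRSS11E had 1.98, 1.95 and 1.63 and MAP2, a microtubule-associated protein of neurons, 2.27, 2.02 and 1.58. The spread over the lines was widest for SLITRK6, a neuronal membrane protein, at 3.08, 2.43 and 1.30, and wide for the ephrin receptor EPHA7 at 2.46, 2.11 and 1.20 and for MCTP1, a calcium-binding membrane protein, at 2.40, 2.28 and 1.53. GBP2, an interferon-induced GTPase, was close to level at 1.23, 1.40 and 1.41, but its lines were called different (edgeR F test, adjusted p = 0.0369). The lines were not called different (edgeR F test over the 3 lines) for HIST1H2BC (adjusted p = 0.128), CXCL10 (0.376), the sodium channel subunit SCN4B (0.218) and the lipase LIPH (0.819). In 10 of the 15 genes the mutant rescue was the line nearest the control.

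The 15 largest falls after the same rule had average log2 fold changes of -2.06 to -0.88. PCAT1, a long noncoding RNA of prostate cancer, was at 45.9 and 43.6 CPM in the control libraries, 16.1 and 17.8 in the knockdown, 18.1 and 17.2 with the wild-type copy and 12.1 and 12.8 with the mutant copy, an average log2 fold change of -1.53 (SE 0.06). KLK2, a kallikrein protease of the prostate induced by androgen, was at 468 and 457 CPM in the control libraries, 237 and 246 in the knockdown, 238 and 233 with the wild-type copy and 198 and 195 with the mutant copy. Its hairpin libraries lay near 1 level in the knockdown and the wild-type rescue and lower in the mutant rescue (-0.26 (95% interval -0.32 to -0.21) against the wild-type rescue), and the average over the lines was -1.05 (SE 0.02) (edgeR adjusted p = 1.26e-99). SFPQ, a nuclear RNA-binding protein that acts in splicing and transcription, was at 329 and 335 CPM in the control libraries, 186 and 184 in the knockdown, 166 and 162 with the wild-type copy and 127 and 121 with the mutant copy, with a step down from each line to the next in that order.

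Among the other falls, PPP1R10, a nuclear targeting subunit of protein phosphatase 1, had an average log2 fold change of -1.09 (SE 0.03), the E-box-binding factor TFAP4 -1.14 (SE 0.06), the transcription factor SOX8 -1.40 (SE 0.09), and the nuclear receptor coactivator NCOA5 -1.22 (SE 0.06). TWNK, the helicase that replicates mitochondrial DNA, was at -1.19 (SE 0.06). AGR2, a disulfide isomerase of secretory epithelia, was at -1.08 (SE 0.07). TBCA, a tubulin-folding cofactor, was at 118 and 111 CPM in the control libraries, 61.6 and 57.3 in the knockdown, 65.9 and 61.4 with the wild-type copy and 56.3 and 57.1 with the mutant copy. YWHAZ, a 14-3-3 adaptor protein often used as a reference gene, was at 303 and 300.0 CPM in the control libraries, 159 and 156 in the knockdown, 169 and 162 with the wild-type copy and 169 and 166 with the mutant copy. TBCA and YWHAZ were both near level over the hairpin lines: their log2 fold changes were -0.95, -0.85 and -1.02 and -0.94, -0.86 and -0.85. Their lines were still called different (edgeR F test over the 3 lines, adjusted p = 0.0134 and 0.0180). CNTNAP1, a contactin-associated adhesion protein, was at -0.92 (SE 0.10), and its lines were not called different (edgeR adjusted p = 0.826). The antisense transcript SLC25A25-AS1 (-1.07 (SE 0.10)) and the pseudogene RPLP0P2 (-1.12 (SE 0.10)) are uncertain, since the strand setting of the counting is not given in the sources used here and RPLP0P2 shares sequence with RPLP0, which was at 0.10 (SE 0.02). In 14 of the 15 falls the mutant rescue was the line farthest from the control. The exception was YWHAZ.

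**Figure D2:**
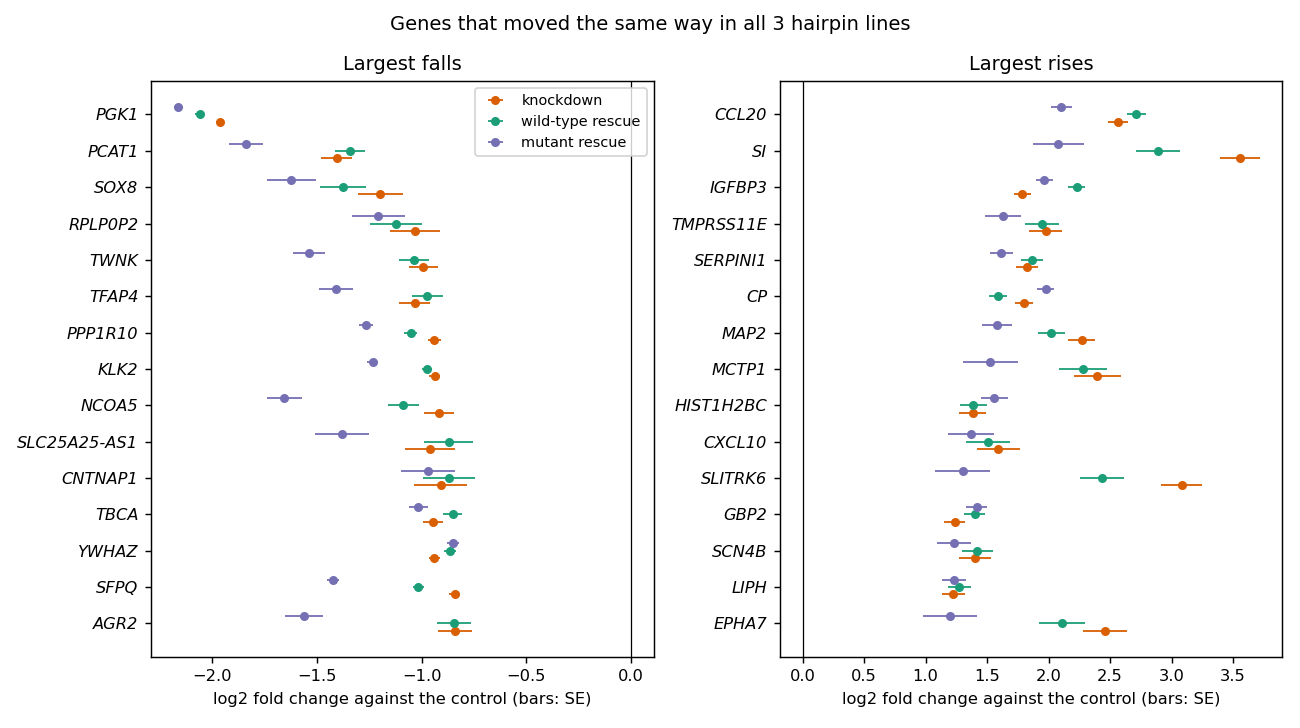
Log2 fold change against the control (horizontal axis, bars are SE) of the 15 largest falls (left) and the 15 largest rises (right), with 1 point for each hairpin line. PGK1 stands apart on the left at about -2 in all 3 lines; among the rises, SI, SLITRK6 and EPHA7 fan out with the mutant rescue nearest 0, whereas LIPH, CXCL10 and HIST1H2BC overlap within their errors.

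Among genes with an average log2 fold change of at least 1 in size, the rises with the most counts (not corrected for gene length) had a common order. MAP1B, a microtubule-associated protein, was at 171 and 168 CPM in the control libraries, 432 and 444 in the knockdown, 347 and 365 with the wild-type copy and 329 and 329.8 with the mutant copy. MANEA, an enzyme that trims N-glycans in the Golgi, was at 82.5 and 79.1 CPM in the control libraries, 221 and 225 in the knockdown, 218 and 206 with the wild-type copy and 122 and 126 with the mutant copy. The membrane protein TMEFF2, the thiamine transporter SLC19A2 and MAN1A1, another mannosidase of N-glycan trimming, had average log2 fold changes of 1.05 (SE 0.03), 1.11 (SE 0.04) and 1.20 (SE 0.05). In all 5 the knockdown was farthest from the control and the mutant rescue nearest. The falls with the most counts were PGK1, PPP1R10, KLK2, SFPQ and the zinc finger gene ZNF37A, and in these 5 the mutant rescue was farthest from the control.

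Moving the same way did not mean moving to the same level. A test among the 3 hairpin lines, which does not use the control, called 8594 of all tested genes different (56.2%). It called 1145 of the 1910 that rose (59.9%) and 1285 of the 2159 that fell (59.5%), shares near that of all genes. In 2520 of the 4069 genes the highest and the lowest log2 fold change of the 3 lines were less than 0.25 apart. Over all 15289 tested genes, 7183 had a range this small. The average change of the 4069 genes had a median size of only 0.37 on the log2 scale. Among these 4069, the line farthest from the control was the mutant rescue in 2235 genes, the knockdown in 950 and the wild-type rescue in 884. The nearest was the knockdown in 1924, the mutant rescue in 1091 and the wild-type rescue in 1054.

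The most level large changes, by the range over the lines among genes that averaged at least 20 CPM, were IFI6, LIPH, GBP2, TUBA1A and PGK1. The F test called the lines different in 3 of these 5, all but IFI6 and LIPH. IFI6, a mitochondrial protein induced by interferon, was at 29.7 and 30.9 CPM in the control libraries, 69.7 and 67.4 in the knockdown, 66.4 and 69.7 with the wild-type copy and 70.1 and 69.7 with the mutant copy. The 3 lines were within 0.04 of each other on the log2 scale (edgeR F test, adjusted p = 0.783), and the 95% interval of the mutant rescue minus the wild-type rescue was -0.06 to 0.13. LIPH, which releases lysophosphatidic acid, was at 10.2 and 10.1 CPM in the control libraries, 23.5 and 24.1 in the knockdown, 24.2 and 25.1 with the wild-type copy and 25.1 and 22.8 with the mutant copy, and that interval was -0.20 to 0.11. TUBA1A, an alpha-tubulin whose paralogs share much of its sequence, had log2 fold changes of 1.28, 1.27 and 1.09. The least level were UGT2B15, ZNF37A, HMOX1, ADAM7 and MANEA, with ranges of 1.25, 1.10, 1.09, 0.97 and 0.85. HMOX1, the enzyme that breaks down heme, was at 22.4 and 21.4 CPM in the control libraries, 42.2 and 45.9 in the knockdown, 44.3 and 51.1 with the wild-type copy and 95.3 and 92.5 with the mutant copy: the mutant rescue was near 4 times the control level and the other 2 hairpin lines near 2 times. The protease-family gene ADAM7 was at 72.2 and 72.1 CPM in the control libraries, 43.8 and 45.4 in the knockdown, 38.7 and 41.1 with the wild-type copy and 24.6 and 20.9 with the mutant copy, with the mutant rescue lowest.

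**Figure D3:**
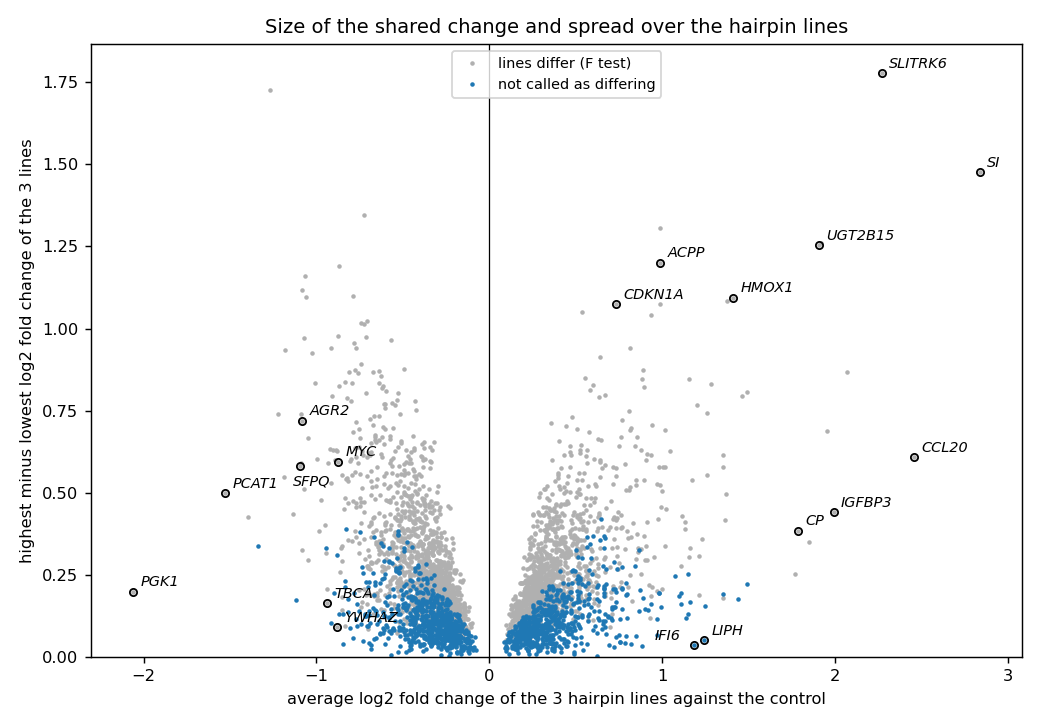
Average log2 fold change of the 3 hairpin lines (horizontal axis) against the difference between the highest and lowest of the 3 (vertical axis), for the 3679 genes that moved the same way and had a mean of at least 5 CPM. In 2369 of them the lines differed by the F test (grey) and in 1310 they were not called (blue); PGK1 combines the largest fall with a low range, and SLITRK6 and SI lie highest among the rises.

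Androgen-induced genes, which mark prostate luminal cells, were mostly lower. Of 40 androgen-induced genes tested, 24 fell and 6 rose, with a median average log2 fold change of -0.31 (all tested genes -0.01, with 14.1% falling and 12.5% rising). KLK3, which encodes prostate-specific antigen, was at 3705 and 3684 CPM in the control libraries, 2598 and 2636 in the knockdown, 2952 and 3016 with the wild-type copy and 3105 and 3067 with the mutant copy. It was lower in all 6 hairpin libraries than in both controls and lowest in the knockdown, with an average log2 fold change of -0.35 (SE 0.01). Against this direction, the secreted protein CRISP3 rose by 0.93 (SE 0.07) and the acid phosphatase ACPP had log2 fold changes of 1.38, 1.39 and 0.19. The call for ACPP in the mutant rescue ended without control replicate 1 (edgeR adjusted p = 0.32) or mutant rescue replicate 2 (0.551), and its call in all 3 lines ended in DESeq2's test (highest adjusted p of the lines 0.151). DESeq2's test kept 21 of the falls and 3 of the rises in this list. Of 22 luminal epithelial markers 11 fell and 1 rose (median -0.22), including AGR2, at 34.8 and 30.5 CPM in the control libraries, 18.2 and 18.2 in the knockdown, 16.6 and 19.6 with the wild-type copy and 11.4 and 10.8 with the mutant copy, and ESRP2, a splicing regulator of epithelia, at -0.53 (SE 0.03). The epithelial transcription factor ELF3 rose (0.15, 0.40 and 0.89 in the 3 lines). Enzymes that conjugate and convert androgens were split, with 3 of 19 up and 3 down (15.8% each, median 0.17), shares near those of all genes: UGT2B15, UGT2B17 and SRD5A3 rose, and SULT2B1, HSD17B6 and SRD5A1 fell. SRD5A3 and SRD5A1 were named after their values were seen because the counts are small. The call for SULT2B1 ended without mutant rescue replicate 1 (highest adjusted p of the lines 0.0877) and that for HSD17B6 without control replicate 1 (0.069). DESeq2's test called neither (0.0571 and 0.0705), and kept 1 of the falls and 2 of the rises in this list.

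MYC and most tested members of a list of MYC targets and ribosome biogenesis genes were lower. MYC, the transcription factor that drives ribosome production, was at 512 and 519 CPM in the control libraries, 328 and 328 in the knockdown, 312 and 313 with the wild-type copy and 213 and 221 with the mutant copy. The average over the lines was -0.87 (SE 0.02) on the log2 scale (edgeR adjusted p = 6.51e-92), and the mutant rescue was the lowest line. Of 39 MYC targets and ribosome biogenesis genes tested, MYC itself included, 29 fell (74.4%) and 0 rose (median -0.43). Of all tested genes 14.1% fell and 12.5% rose. The medians by line were -0.26 (knockdown), -0.36 (wild-type rescue) and -0.75 (mutant rescue). NOP56, a core protein of box C/D small nucleolar particles, was at -0.65, -0.72 and -1.27 in the 3 lines, the small nucleolar particle protein RRP9 at -0.64, -0.70 and -1.11, and ODC1, the first enzyme of polyamine synthesis, at -0.41, -0.63 and -1.28. Most genes in a list of ATF4, the stress-response factor that induces amino acid supply, its targets and amino acid synthesis were also lower. Of 37 tested, ATF4 itself included, 24 fell (64.9%) and 1 rose (2.70%, median -0.34). The amino acid transporters SLC1A4 and SLC6A9 had average log2 fold changes of -0.87 (SE 0.10) and -0.78 (SE 0.08), and the secreted glycoprotein STC2 of -0.94 (SE 0.04). The lipoprotein receptor VLDLR was the member that rose, by 0.60 (SE 0.07). For these genes the lines did not all stand in the order of the MYC list, since the mutant rescue median was -0.26 against -0.35 in the knockdown.

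Of 38 mitotic genes 15 fell (39.5%) and 0 rose (median -0.18), against 14.1% and 12.5% of all tested genes. The kinase PLK1 was at -0.27, -0.29 and -0.62, the survivin gene BIRC5 at -0.36, -0.29 and -0.46 and CDC20, an activator of the anaphase-promoting complex, at -0.26, -0.24 and -0.56. Of 43 DNA replication genes 13 fell (30.2%) and 0 rose (median -0.19). Among the falls were the helicase subunits MCM3 (-0.29, -0.28 and -0.78) and MCM7 (-0.19, -0.29 and -0.60). These 2 counts depended on the test: DESeq2 kept 6 of the mitotic falls and 2 of the replication falls. The cytosolic ribosomal proteins, themselves not among the MYC list, went the other way by small amounts. Of 78 tested 35 rose (44.9%) and 1 fell (1.28%, median 0.14). RPL27A was at 0.23, 0.36 and 0.45 and RPL38 at 0.14, 0.29 and 0.41. The 1 that fell was RPL36A, at -0.59, -0.40 and -0.83. Reads of ribosomal proteins can be split with their many pseudogenes. Of 75 respiratory chain and ATP synthase subunits 33 rose (44%) and 2 fell (2.67%, median 0.17). UQCR10 of complex III was at 0.31, 0.47 and 0.51 and NDUFB3 of complex I at 0.39, 0.52 and 0.36. The 2 that fell were NDUFV3 (-0.44 (SE 0.05)) and SDHD (-0.28 (SE 0.05)), and the call for SDHD ended without control replicate 1 (highest adjusted p of the lines 0.113), without mutant rescue replicate 2 (0.235) or by DESeq2 (0.0999).

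Histone genes had the highest list median, 0.50, with 13 of 27 up (48.1%) and 1 down (3.70%), against 12.5% and 14.1% of all tested genes. HIST1H2BC was at 6.32 and 7.68 CPM in the control libraries, 18.2 and 18.4 in the knockdown, 19.1 and 17.6 with the wild-type copy and 22 and 19.3 with the mutant copy, the 6 hairpin libraries all above 2 times the control libraries. HIST2H2BF had an average log2 fold change of 1.25 (SE 0.20). H2AFX, a variant histone of the DNA damage response whose message carries a poly(A) tail, fell, at -0.47 (SE 0.02). Many histone genes of the same class are near-identical to one another. Messages of the replication-dependent ones mostly lack a poly(A) tail, while the library kit selects messenger RNA. RNR1 and RNR2 are symbols of ribosomal RNA genes, and whether they are mitochondrial or cytosolic ones was not checked. They took 3.22% to 3.27% of the control counts and 2.44% to 2.79% of those in the hairpin libraries. The part of this difference in the histone result was not tested.

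Among chemokines and interferon-stimulated genes, more rose than fell. Of 27 NF-kappaB response genes and chemokines tested, 9 rose (33.3%) and 1 fell (3.70%, median 0.25), against 12.5% and 14.1% of all tested genes. In this list 17 were not called in all 3 lines. Besides CCL20, the neutrophil chemokine CXCL8 was at 4.04 and 4.35 CPM in the control libraries, 13.3 and 14.5 in the knockdown, 15.3 and 13.6 with the wild-type copy and 9.13 and 7.37 with the mutant copy and the T cell chemokine CXCL10 at 2.65 and 2.33 CPM in the control libraries, 7.73 and 7.31 in the knockdown, 6.9 and 7.24 with the wild-type copy and 6.35 and 6.55 with the mutant copy. CXCL8, like CCL20, was lowest of the hairpin lines in the mutant rescue. TRAF1, an adaptor of tumour necrosis factor receptors, fell from low counts, at -1.82 (SE 0.32), and its call ended without control replicate 1 (highest adjusted p of the lines 0.308), without knockdown replicate 1 (0.246) or by DESeq2 (0.185). Of 45 interferon-stimulated genes 13 rose (28.9%) and 2 fell (4.44%, median 0.27). IFI6, described above, is among them, and IFI44L had the largest average rise, at 0.316 and 0.315 CPM in the control libraries, 2.71 and 2.92 in the knockdown, 2.32 and 2.27 with the wild-type copy and 1.52 and 1.7 with the mutant copy, with log2 fold changes of 3.12, 2.83 and 2.33. The 2 that fell were IFIT5 (-0.43 (SE 0.10)) and ISG20 (-0.25 (SE 0.06)). Neither fall was called by DESeq2 or without control replicate 1 (highest adjusted p of the lines 0.165 and 0.254) or control replicate 2 (0.0822 and 0.0561). IFIT5 was also lost without mutant rescue replicate 1 (0.553), and ISG20 without wild-type rescue replicate 2 (0.231) or mutant rescue replicate 2 (0.299). Of 31 p53 targets 8 rose (25.8%) and 1 fell (3.23%, median 0.18). CDKN1A, the cell cycle inhibitor p21, was at 366 and 362 CPM in the control libraries, 442 and 455 in the knockdown, 516 and 530.4 with the wild-type copy and 958 and 929.8 with the mutant copy. Its log2 fold changes were 0.30, 0.52 and 1.37 in the order knockdown, wild-type rescue, mutant rescue. The pro-apoptotic gene PMAIP1 was at 0.61, 0.70 and 1.13 and the death receptor FAS at 0.36, 0.48 and 0.67, whereas the death receptor TNFRSF10B fell, at -0.45 (SE 0.02).

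PGK1 stood among glycolytic genes that moved in both directions. Of 20 glycolytic enzymes and regulators tested 4 rose and 4 fell (20% each, median -0.04), against 12.5% and 14.1% of all tested genes. HK2, a hexokinase, was at -0.28, -0.51 and -0.80 in the 3 lines. PFKFB4, which sets the level of fructose 2,6-bisphosphate, rose by 0.49 (SE 0.04), and the aldolase ALDOC by 0.21 (SE 0.03). Of 20 hypoxia targets, a list that here does not hold PGK1, 5 rose (25%) and 2 fell (10%, median 0.09): the histone demethylase KDM3A and the prolyl hydroxylase P4HA1 rose by 0.53 (SE 0.04) and 0.53 (SE 0.03), and the glucose transporter SLC2A1 was at -0.45 (SE 0.04). ANGPTL4, the other fall at -0.98 (SE 0.30), was at 0.508 to 1.64 CPM, and its call ended under each of the 8 left-out libraries (highest adjusted p of the lines 0.0514 to 0.305) and under DESeq2. Cholesterol genes rose in 5 of 26 (19.2%) and fell in 1 (3.85%, median 0.09), and the rises were largest in the mutant rescue for the sterol oxidase MSMO1 (0.30, 0.40 and 1.22) and for HMGCS1 (0.21, 0.26 and 0.83), an early enzyme of the pathway. Of 24 fatty acid synthesis genes 3 rose (12.5%, the share of all tested genes) and 6 fell (25%, median -0.14). The elongase ELOVL5 was at 580.1 and 561 CPM in the control libraries, 395 and 399 in the knockdown, 381 and 369 with the wild-type copy and 390.2 and 396 with the mutant copy, near level over the hairpin lines, and the desaturase FADS1 at -0.34 (SE 0.03).

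The machinery that the experiment itself draws on was examined next. Of 20 m6A writers, readers and erasers tested, METTL3 included, 1 rose (5%) and 2 fell (10%, median 0.04). The reader YTHDF2 was at -0.20, -0.23 and -0.17. The other fall, RBM15B, a writer-complex adaptor (-0.09, -0.30 and -0.18), was not called without control replicate 2 (highest adjusted p of the lines 0.269), without knockdown replicate 1 (0.281) or by DESeq2 (0.147). The rise, HNRNPA2B1 (0.05, 0.15 and 0.09), was not called without control replicate 1 (0.0886), control replicate 2 (0.125) or knockdown replicate 1 (0.0923). Of 15 small RNA processing and silencing genes 2 rose (13.3%) and 3 fell (20%, median 0.01), near the 12.5% and 14.1% of all tested genes. DICER1, which cuts hairpins, was at 127 and 125 CPM in the control libraries, 196 and 199 in the knockdown, 185 and 182 with the wild-type copy and 176 and 188 with the mutant copy, with every hairpin library above both controls, and the Argonaute AGO4 rose by 0.46 (SE 0.04). XPO5, which exports hairpin precursors from the nucleus, fell, at -0.38 (SE 0.04). AGO1 was at -0.18, -0.52 and -0.67, and its call ended without knockdown replicate 2 (0.0723). In the insulin-like growth factor axis 2 of 16 rose and 3 fell (median -0.09), shares near those of all genes: beside IGFBP3, the receptor adaptor GRB10 rose by 0.91 (SE 0.02), and the substrate IRS1 fell, at -0.78 (SE 0.11). DESeq2's test did not call IRS1 in all 3 lines (highest adjusted p 0.0659) and kept 1 of the 3 falls. Among 36 integrins, adhesion and matrix genes 3 rose and 5 fell (median -0.06), also near the shares of all genes, with the fibronectin receptor subunit ITGA5 at 0.31 (SE 0.04) and the proteoglycan SDC1 at -0.44 (SE 0.04).

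Of 14 genes often used as references, 2 rose (14.3%) and 3 fell (21.4%), near the 12.5% and 14.1% of all tested genes. The lines differed in all 14, against 56.2% of all tested genes. The falls were PGK1, YWHAZ and ACTB (-0.32, named after its value was seen). RPLP0 was at 1215 and 1226 CPM in the control libraries, 1285 and 1280.4 in the knockdown, 1272 and 1332 with the wild-type copy and 1336 and 1322 with the mutant copy, a log2 fold change of 0.10 (SE 0.02), and SDHA at 0.17 (SE 0.03), a rise whose call ended without control replicate 2 (highest adjusted p of the lines 0.0584).

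Markers of other cell types were mostly at low levels. Of 10 neuroendocrine markers tested 3 rose (30%) and 2 fell (20%, median 0.17), against 12.5% and 14.1% of all tested genes. Their 7 defining markers summed to 85.5 to 92.6 CPM in the control, knockdown and wild-type rescue libraries. The sum was 104 to 109 in the mutant rescue. SYT11, a synaptotagmin, was at 0.695 and 0.756 CPM in the control libraries, 3.27 and 3.49 in the knockdown, 3.03 and 2.38 with the wild-type copy and 2.65 and 2.77 with the mutant copy, and the decarboxylase DDC at 36.9 and 37.4 CPM in the control libraries, 77.3 and 81.1 in the knockdown, 81 and 82.1 with the wild-type copy and 54.7 and 51.7 with the mutant copy; TUBB3, a tubulin of neurons, was the third that rose (0.77 on average, named after its value was seen). Of the 2 that fell, SYT4, another synaptotagmin and the most abundant of the 10 by CPM, had log2 fold changes of -0.18, -0.29 and -0.86 in the 3 lines. SEZ6, at -1.18 (SE 0.28) on average, had low counts, and its call ended without control replicate 1 (highest adjusted p of the lines 0.377), without wild-type rescue replicate 2 (0.231) or by DESeq2 (0.171). Mesenchymal markers (657 to 730 CPM in sum, with COL1A2 at 0) rose in 3 of 17 (17.6%). These were COL6A1 (0.20 (SE 0.02)), COL1A1 (0.26 (SE 0.04)) and LUM (1.64 (SE 0.49)). The call for COL1A1 ended without control replicate 1 (highest adjusted p of the lines 0.114), control replicate 2 (0.0526) or knockdown replicate 2 (0.473), with the length trend removed (0.0984) or by DESeq2 (0.121), and that for LUM, at 0.19 to 1.35 CPM, ended under each of the 8 left-out libraries (0.0518 to 0.273) and by DESeq2 (0.175). Intestinal markers summed to 2.33 to 2.91 CPM in the control libraries and 7.28 to 19.1 in the hairpin libraries, with FABP1 at 0. Most of that sum was SI, which rose alone among 11 tested intestinal genes, while the peptidase DPP4 fell, at 3.41 and 3.46 CPM in the control libraries, 1.02 and 1.4 in the knockdown, 1.16 and 1.88 with the wild-type copy and 0.86 and 0.944 with the mutant copy. The basement membrane linker DST was the 1 of 9 basal markers (11.1%) that rose (0.45 (SE 0.05)). Of 3 leukocyte markers with enough counts CD4 and CD68 fell (-1.62 (SE 0.39) and -0.41 (SE 0.07)). The call for CD4, at most 1.2 CPM, ended without control replicate 1 (0.178), wild-type rescue replicate 1 (0.0962) or mutant rescue replicate 2 (0.134), and that for CD68 without control replicate 1 (0.255) or mutant rescue replicate 1 (0.135). DESeq2 called neither (0.15 and 0.152).

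**Figure D4:**
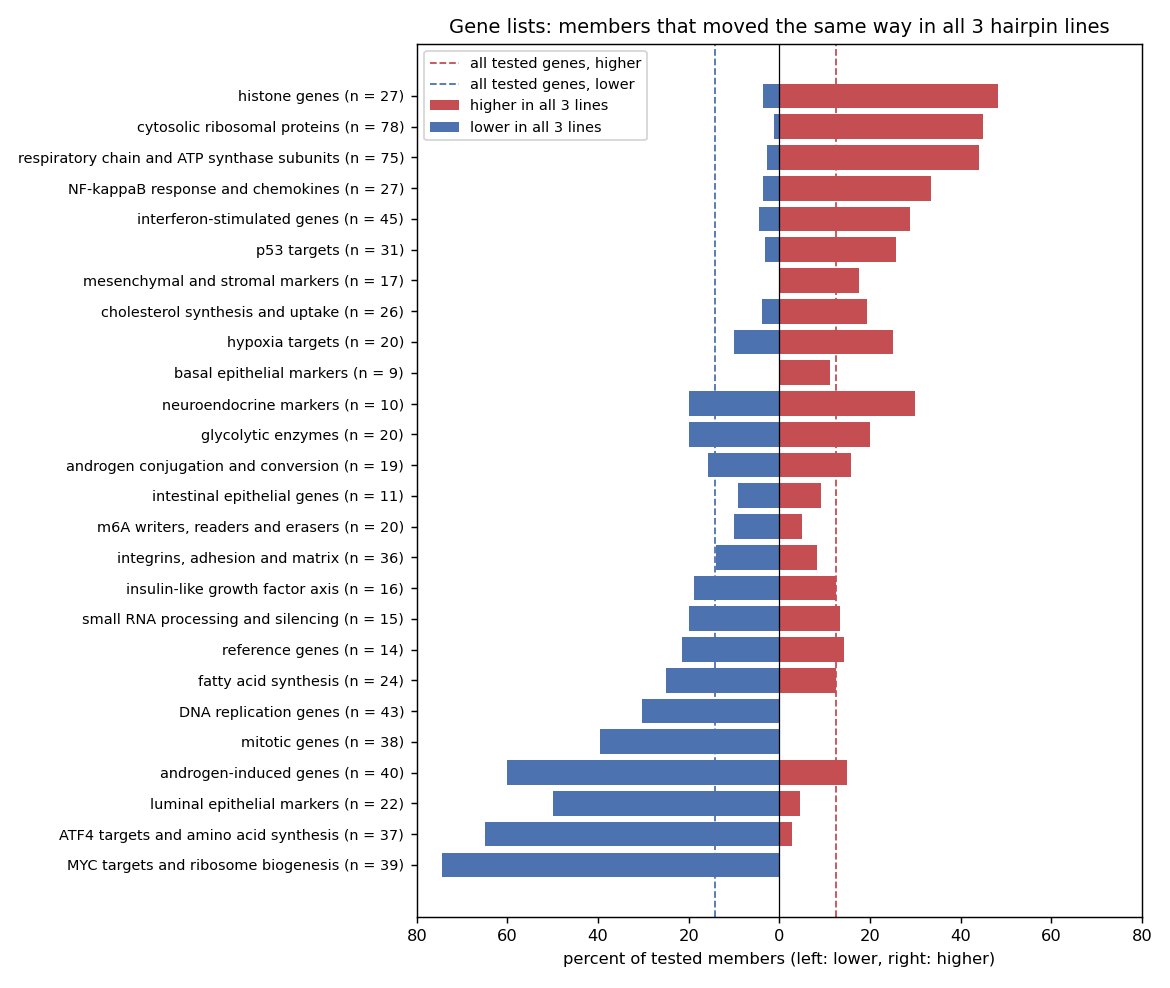
Share of tested members (horizontal axis, percent) that were higher (right) or lower (left) than the control in all 3 hairpin lines, for gene lists with at least 9 tested members; dashed lines give the shares over all 15289 tested genes, 12.5% and 14.1%. MYC and ATF4 targets and androgen-induced genes extend farthest to the left, and histone, ribosomal protein and respiratory chain genes farthest to the right.

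With the lines as units, 3 against 1 and the control line assumed to vary like the hairpin lines, 16 genes were called. The biological coefficient of variation was 11.6%, against 1.40% between libraries of a line, and the fit held 4 units in place of 8 libraries. PGK1 had the smallest adjusted p (edgeR, 0.00134), followed by CCL20, CP, IGFBP3, SERPINI1 and the small nuclear RNA gene RNU6-2, each at an edgeR adjusted p of 0.0305. RNU6-2 had not been called in all 3 lines and is not among the shared changes. The other 10 were IFI6 (0.0359), LINC00930 (0.0406) and, at 0.0489 each, GBP2, HIST1H2BC, LIPH, PCAT1, PPP1R10, TBCA, TMPRSS11E and YWHAZ. In this test 2458 genes had an unadjusted p under 0.05. With the 6 hairpin libraries as 1 group, 3247 of the 4069 genes were called.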

How the data were processed

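RNA was sequenced in 8 libraries of 4 LNCaP lines. Per the file headers, the authors deposited raw counts for each gene and library beside a length column (other unit, bases). Per the submitters' processing notes, the tools were CASAVA, featureCounts, DESeq2 and STAR 2.5.2b, with build hg19. Parameters, annotation and the strand setting are not given in the sources used here. Libraries were grouped by their titles, and all 8 count columns matched a title.

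The counts were fitted in R 4.3.3 by edgeR 4.0.16. The filterByExpr rule on the 4 groups was applied (minimum count 10, minimum total 15), libraries were scaled by TMM, and 1 quasi-likelihood model with a mean per group and robust dispersion was fitted to all 8. Tests were two-sided: each hairpin line against the control, their average against the control, and an F test among the 3 lines. P-values were adjusted by Benjamini-Hochberg over all 15289 tested genes and called under 0.05. A standard error is the size of the log2 fold change over the root of its F, and 95% intervals use the fit's degrees of freedom. Totals of 15200343 to 17893241 counts set the precision. Without molecular identifiers, reads may share a molecule.

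The gene sets and lists were chosen with earlier results of these data known. Named genes are METTL3, KLK3, PGK1, CCL20 and UGT2B15; the 15 largest rises and falls by the smallest of the 3 log2 fold changes (averaging at least 5 CPM, named by a symbol and no clone name, no overlap between hairpin and control libraries); the 5 most abundant rises and falls and, at a mean of at least 20 CPM, the 5 smallest and largest ranges over the lines, all with an average of at least 1 in size; and in each of 27 lists up to 4 members with the largest averages, those against the list's direction first. Some that meet the rule are not named.

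Alternatives were DESeq2 1.42.0 size factors, its Wald test, no filter, a mean of at least 10 CPM, a minimum log2 fold change of 1, a lowess length offset (span 0.3), a replicate block, leaving out each library or hairpin line, 2 arms, and lines as units. In data simulated for 15289 genes, genes changed the same way in all 3 lines were recovered in 72%, 86% and 100% at log2 fold changes of 0.5, 1 and 2, in 78% at -1, and 0 of 14907 unchanged genes were called. The simulated lines differed in nothing but the set changes, with a small spread between libraries. It therefore cannot show how many calls differences between lines would give. Gene order came from RefSeq (GRCh38.p14), in which 14903 of the 15289 genes matched by name. Coordinates of hg19 are not used here, and no gene of the Y chromosome is named.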

Additional observations from a re-analysis of the deposited data

Results flagged for a closer look

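Among genes that moved the same way, averaged at least 20 CPM and had an average log2 fold change of at least 1 in size, 5 differed most between the hairpin lines, by the range of log2 fold change over the lines, and were called different by the F test among them. In UGT2B15 the range was 1.25, with the mutant rescue lowest of the 3 lines (edgeR adjusted p = 4.58e-52). ZNF37A had a range of 1.10 and HMOX1 of 1.09. In ADAM7 the range was 0.97 and in MANEA 0.85. The mutant rescue was the line at the end of the order in each of these 5: nearest the control for UGT2B15 and MANEA, and farthest from it for ZNF37A, HMOX1 and ADAM7. These genes were ranked by this range over the lines, so the ranges describe them.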

How the results depend on the processing

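Each comparison with the control uses 2 libraries of 1 control line, so the results hold for these lines. The number of genes that moved the same way stayed within 1.5 times under DESeq2 size factors, no filter, a mean of at least 10 CPM and the length offset. Without 1 library it ranged from 1518 to 1801 upward and from 1778 to 2033 downward, and 104 of the 128 named genes with this call kept it under every left-out library. DESeq2's Wald test called 1248 and 1331, all 2579 of them among the 4069. It called 2365 genes lower in the knockdown, 2406 higher and 2561 lower in the wild-type rescue, and 5542 different among the lines. Requiring a log2 fold change of 1 left 131 and 66 that moved the same way, 287 and 198 for the average, 326 and 188 for the knockdown, 321 and 170 for the wild-type rescue, 373 and 464 for the mutant rescue and 407 among the lines. The average had 1635 and 1832 calls with 2 arms, and 9 and 7 with lines as units, where the spread includes differences between lines. No direction of a named gene reversed. Of the 129, the average was no longer called in 16 with 2 arms and 115 with lines as units. For the 24 named genes whose call ended without a library, and for lists whose counts moved, the cause was not tested.

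The replicate numbers do not pair the libraries: deviations of same-numbered libraries correlated at -0.0457 to 0.0384 over 10398 genes. With the replicate number as a block, 1915 genes rose and 2170 fell in all 3 lines, and no average call of a named gene changed. Genes below about 1 CPM, such as ANGPTL4 and LUM, are limited by depth.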

Other observations

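Some transcripts were close to absent in the control and present in every hairpin library. LIX1 had 3 counts over the 2 control libraries and 29 to 54 in each hairpin library. TMPRSS11D, a transmembrane protease of the airway and a relative of TMPRSS11E, had 3 and 14 to 41, and HOPX, a small homeodomain protein, had 3 and 13 to 22. These 3 were the genes with at most 3 counts in each control library and at least 10 in each hairpin library. For the opposite pattern, at most 3 counts in each hairpin library and at least 10 in each control library, 0 genes qualified.

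Shared changes also stood side by side in the genome. In RefSeq's order of the tested genes, the longest run of neighbours that rose was 6 genes on chromosome 7 (IMMP2L, DOCK4, ZNF277, IFRD1, LSMEM1 and TMEM168), with average log2 fold changes of 0.22 to 1.26. On chromosome 12 CLEC2D, CLEC2B, CLEC7A, GABARAPL1 and KLRC3 rose, by 0.47 to 3.17, and on chromosome 5 SLF1, MCTP1, FAM81B, TTC37 and ARSK rose, by 0.27 to 2.21. Runs of 5 that fell were on chromosome 1 (PRKACB to RPF1, -1.47 to -0.19) and on chromosome 18 (ALPK2 to LMAN1, -0.92 to -0.24). Whether runs of this length are more than the share of called genes gives was not tested. Medians by nuclear chromosome (Y not used here) ranged from -0.08 on chromosomes 16 and 21 to 0.05 on chromosome 4. The 2 matched mitochondrial genes both fell, with a median of -0.41. Whether these 2 are the RNR1 and RNR2 described with the histone genes was not checked. The genes that rose had a median length of 3684 bases and those that fell 3506, against 3194 over all tested genes. The 135 that fell by at least 1 on average had 2502, and the 189 that rose by at least 1 had 3499. Median levels of these 135 and 189 genes were only 1.59 and 2.60 CPM, against 27.3 over all tested genes.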
